A study of Homo sapiens with 6 samples.

Results

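The ATP-binding cassette (ABC) transporters and the organic anion uptake carriers of the SLCO family were described in HepG2 cells given atractylon. Members were protein-coding genes of GENCODE 29 whose symbols name subfamilies A to G of the ABC family or an SLCO gene, together with CFTR, TAP1 and TAP2 and without 1 ABC gene of subfamily B. The rule found 59 genes, 47 ABC and 12 SLCO, among 33798 genes with a transcript in the table. Atractylon is a plant sesquiterpenoid from Atractylodes rhizomes, and HepG2 cells derive from a human liver tumour. The 3 treated libraries came from cells given 20 µM atractylon and the 3 control libraries from HepG2 cells without it. Both groups grew in DMEM with serum and an antibiotic supplement, and the labels name neither a solvent given to the controls nor a time of treatment. Nothing says that replicates were separate cultures, so each p-value reflects the spread among these libraries alone, and that spread may be technical. In bulk RNA, fewer cells of a type and less RNA per cell cannot be told apart.

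ABC proteins bind and hydrolyse ATP in paired cytosolic domains, and most use it to move lipids, bile constituents, drug conjugates, peptides or metals across a membrane. In the hepatocyte, canalicular members such as ABCC2, ABCB1, ABCB4 and ABCG2 load bile, while ABCC3 and ABCC4 return conjugates to blood. SLCO proteins, also called OATPs, work the other way at the blood side, taking up bilirubin, bile acids, hormones and drugs such as statins without ATP. Members of subfamilies E and F carry the ATP-binding domains but no membrane domain, and act on ribosomes and translation.

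Total expected counts, the authors' estimated reads per library, ranged from 7394281 to 8072321 in the treated and from 5859575 to 8832092 in the control libraries. The 59 members took 0.258% to 0.286% of gene counts in treated and 0.252% to 0.275% in control libraries. All 11 hepatocyte and HepG2 markers fixed for the check were detected, with a summed level of 14976 to 17018 FPKM in treated and 15681 to 16644 FPKM in control libraries. FPKM scales fragments to transcript length and library size, so it is the scale used here to compare genes, although a short transcript can raise the sum of a gene. Among 6 blood markers, LYZ, CD68 and CD14 were detected, while PTPRC reached at most 0.06 FPKM and HBB was at 0 in every library. Their sum was 551 to 669.7 FPKM in treated and 543 to 692 FPKM in control libraries. Most of it was LYZ, at 517.4 to 667.55 FPKM over all libraries. All 4 biliary markers were detected, with a sum of 452 to 517 FPKM in treated and 502 to 514 FPKM in control libraries. Of 7 endothelial and stellate markers 4 were detected, with a sum of 51.0 to 78.6 FPKM in treated and 69.4 to 75.8 FPKM in control libraries. Most of that sum was ACTA2, at 41.45 to 66.57 FPKM over all libraries. The part of cells with any of these markers in any member's value was not tested.

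HepG2 cells expressed most ABC genes and few SLCO genes. A gene was called detected, and was tested, when 3 or more of the 6 libraries had 0.5 FPKM or more. By that measure 36 of 59 members were detected, 33 of 47 ABC genes and 3 of 12 SLCO genes. Subfamily B had 9 of 10 members detected, C 8 of 12, A 6 of 12, D 3 of 4, G 3 of 5, F 3 of 3 and E its single member. The members' FPKM values summed to 973, 964 and 921 in the treated libraries and to 911, 943 and 927 in the control libraries. Subfamily C held the largest part, 305, 281 and 263 FPKM in treated and 272, 308 and 292 FPKM in control libraries.

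**Figure D1:**
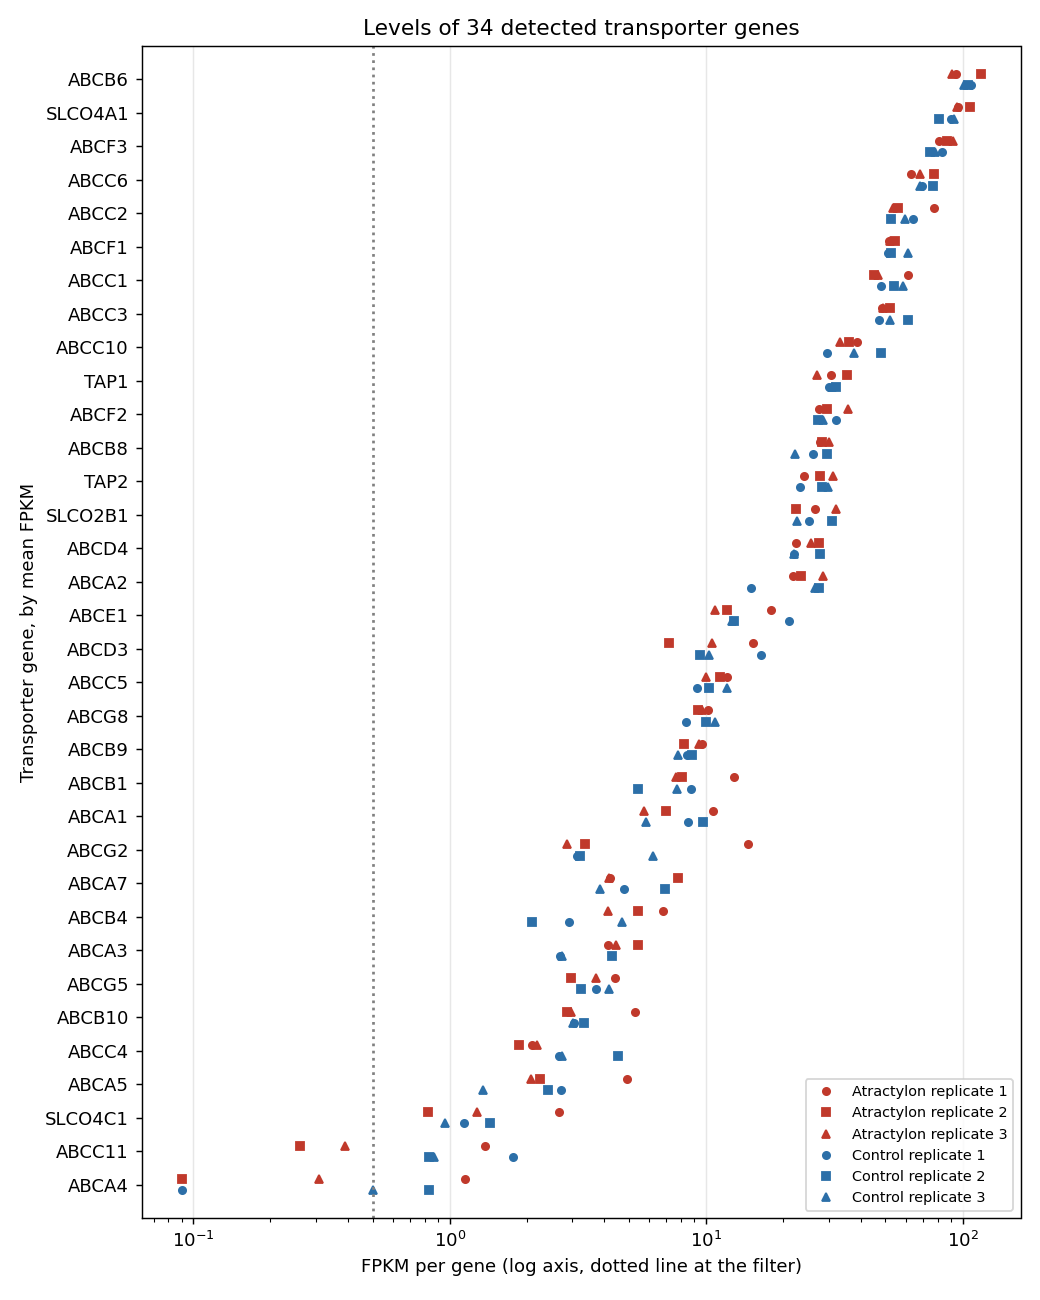
FPKM of 34 of the 36 detected transporter genes in each library, on a log axis, with treated libraries in red above control libraries in blue and genes ordered by mean FPKM. Treated and control points lie together for most genes, from ABCB6, the highest, to ABCA4, which had 0.09 to 1.15 FPKM in treated and 0.09 to 0.83 FPKM in control libraries.

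Of the 23 members below the filter, 11 had 0 counts in all 6 libraries. These were ABCA9, ABCA13, ABCB5, ABCC8, ABCC12, ABCD2, ABCG4, CFTR, SLCO1B1, SLCO1C1 and SLCO2A1. CFTR is the epithelial chloride channel, ABCC8 the sulphonylurea receptor of pancreatic beta cells, and SLCO1B1 the main hepatocyte uptake carrier for statins. With 41603563 gene counts summed over the libraries, a count of 0 allows a level of up to 0.0721 CPM (counts scaled to effective library size), covering counting error only. Another 11 members had between 1 and 11 counts in all: SLCO1A2, SLCO1B3, SLCO1B7, SLCO3A1, SLCO5A1, SLCO6A1, ABCA6, ABCA8, ABCA10, ABCA12 and ABCG1. SLCO1B3, the liver-specific partner of SLCO1B1, had 1 count in the treated and 2 in the control libraries. ABCG1, which exports cholesterol from macrophages, had 4 counts in the treated and 0 in the control libraries. ABCC9, a subunit of potassium channels of muscle, lay just below the filter with 76 counts in the treated and 65 in the control libraries, and a maximum of 0.69 FPKM. Just above it lay ABCA4, the retinal transporter, and ABCC11, the transporter of apocrine glands, which had 1.37, 0.26 and 0.39 FPKM in treated and 1.76, 0.83 and 0.87 FPKM in control libraries. ABCA4 passed with 41 counts in all, against 141 for ABCC9, and transcripts under 1000 bases held 65.3% of the FPKM of ABCA4. Detection by FPKM therefore does not order these genes by counts.

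Promoters of detected members held more CpG than those of undetected members, which is given as a description. RefSeq windows on GRCh38.p14, each 250 bases before to 50 after a transcription start, were found for 43 of the 59 members. The values are on hg19 in the submitters' processing notes, so only sequences and not the files' coordinates are used. CpG dinucleotides were counted in the richest window of each gene. Of 29 detected members with a window, 25 had at least 14 CpG, the median over all 35116 windows, and their median was 28. Of 14 undetected members with a window, 3 reached 14, and their median was 3. The cut of 14 comes from single windows, so a gene with several windows reaches it more easily. Detected and undetected genes outside the members were not compared. The undetected members at or above 14 CpG were ABCC9, ABCG4 and SLCO3A1. The detected members below it were ABCC2, SLCO2B1, ABCG5 and ABCG8, which are best known from liver and intestine.

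The sequences below contrast these classes. SLCO1B1 (chr12:21130944-21131193, + strand) and SLCO1B3 (chr12:20810455-20810704, + strand) are shown as the CpG-free promoters of undetected liver carriers. ABCC2 (chr10:99782390-99782639, + strand) is shown as a highly expressed gene with 1 CpG, at a mean of 60.5 FPKM over the 6 libraries. ABCC4 (chr13:95301452-95301701, - strand) is shown as a CpG-rich gene with 42, at a mean of only 2.68 FPKM. Between these 2 detected genes the level therefore did not follow CpG. Capitals mark CG, so the first 2 sequences hold none. All 4 are the 250 bases before the start, written 5′ to 3′ on the gene's strand.
SLCO1B1: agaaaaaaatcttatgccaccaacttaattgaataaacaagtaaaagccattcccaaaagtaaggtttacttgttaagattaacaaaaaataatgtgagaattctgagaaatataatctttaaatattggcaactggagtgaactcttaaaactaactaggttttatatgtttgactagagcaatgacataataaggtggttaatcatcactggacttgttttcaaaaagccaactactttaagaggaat
SLCO1B3: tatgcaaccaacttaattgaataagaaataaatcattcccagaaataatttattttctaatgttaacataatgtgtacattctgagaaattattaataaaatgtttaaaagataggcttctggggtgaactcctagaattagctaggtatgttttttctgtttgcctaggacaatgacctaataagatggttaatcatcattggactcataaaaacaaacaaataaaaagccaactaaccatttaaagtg
ABCC2: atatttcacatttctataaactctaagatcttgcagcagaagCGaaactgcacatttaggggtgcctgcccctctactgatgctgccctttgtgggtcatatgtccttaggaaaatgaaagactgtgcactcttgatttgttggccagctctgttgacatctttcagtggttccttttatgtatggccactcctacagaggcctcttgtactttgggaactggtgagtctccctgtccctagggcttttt
ABCC4: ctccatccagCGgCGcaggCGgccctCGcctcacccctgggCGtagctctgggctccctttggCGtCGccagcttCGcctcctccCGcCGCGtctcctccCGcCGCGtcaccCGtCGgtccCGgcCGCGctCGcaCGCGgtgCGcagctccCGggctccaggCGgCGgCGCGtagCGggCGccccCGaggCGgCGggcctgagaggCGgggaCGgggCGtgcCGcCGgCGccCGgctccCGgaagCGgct

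The longest run of bases that the SLCO1B1 and SLCO1B3 promoters share is 18 bases.

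ABCG5 and ABCG8 form the heterodimer that returns plant sterols and cholesterol to bile and gut, and their genes lie head to head. Their RefSeq windows overlap by 231 bases (chr2:43838790-43839020, shown on the + strand, CG in capitals), so 1 stretch of DNA lies in the windows of both. Its promoter activity was not tested.
ABCG5/ABCG8: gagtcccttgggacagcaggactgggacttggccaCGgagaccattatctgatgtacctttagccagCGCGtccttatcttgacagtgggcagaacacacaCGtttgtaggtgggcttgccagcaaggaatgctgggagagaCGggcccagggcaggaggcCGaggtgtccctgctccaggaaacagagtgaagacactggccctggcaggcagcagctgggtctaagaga
Both genes were detected at low levels. ABCG8 had 10.2, 9.25 and 9.64 FPKM in treated and 8.31, 9.95 and 10.8 FPKM in control libraries. ABCG5 had 4.41, 2.97 and 3.71 FPKM in treated and 3.71, 3.25 and 4.17 FPKM in control libraries. The groups overlapped for each gene, and the log2 fold changes were 0.01 ± 0.17 for ABCG8 and 0.02 ± 0.22 for ABCG5 (SE, n = 3 per group).

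The comparison of treated with untreated cells asked which transporters differed with atractylon. No member passed the threshold. In the quasi-likelihood test of edgeR, with Benjamini-Hochberg adjustment over 12344 genes, 0 of 36 members had an adjusted p below 0.05, as did 0% of all genes, while 185 genes had an unadjusted p below 0.05. DESeq2 and limma also called 0 members. The adjusted p was 1 for each member. At an unadjusted p below 0.05 there was 1 member, ABCC4, by edgeR, against 1.5% of all genes (0.664% higher and 0.834% lower), and 0 members by DESeq2 and by limma. The groups did not overlap in CPM in 3 members, SLCO4A1 and ABCF3 with higher and ABCC4 with lower values. Over all genes 5.62% did not overlap (2.3% higher and 3.32% lower). These shares are near the background, so they are no result about the transporters.

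Fold changes were positive for 26 and negative for 10 of the 36 members, against 6342 positive and 6002 negative over all genes tested. The members' median log2 fold change was 0.04, with quartiles of -0.01 and 0.14, and the median of all genes was 0.0047. With the trend of counts with GC content removed, 21 members were positive, and without the first replicate of both groups 18 of 34 were. The 95% confidence interval lay within 2-fold in either direction for 32 of 36 members (88.9%), against 81.9% of all genes, and within 1.5-fold for 25. The 4 members with intervals beyond 2-fold were SLCO4C1, ABCC11, ABCA4 and ABCA5. All these intervals reflect the spread among these libraries, which may be technical, so they do not bound changes between separate cultures.

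**Figure D2:**
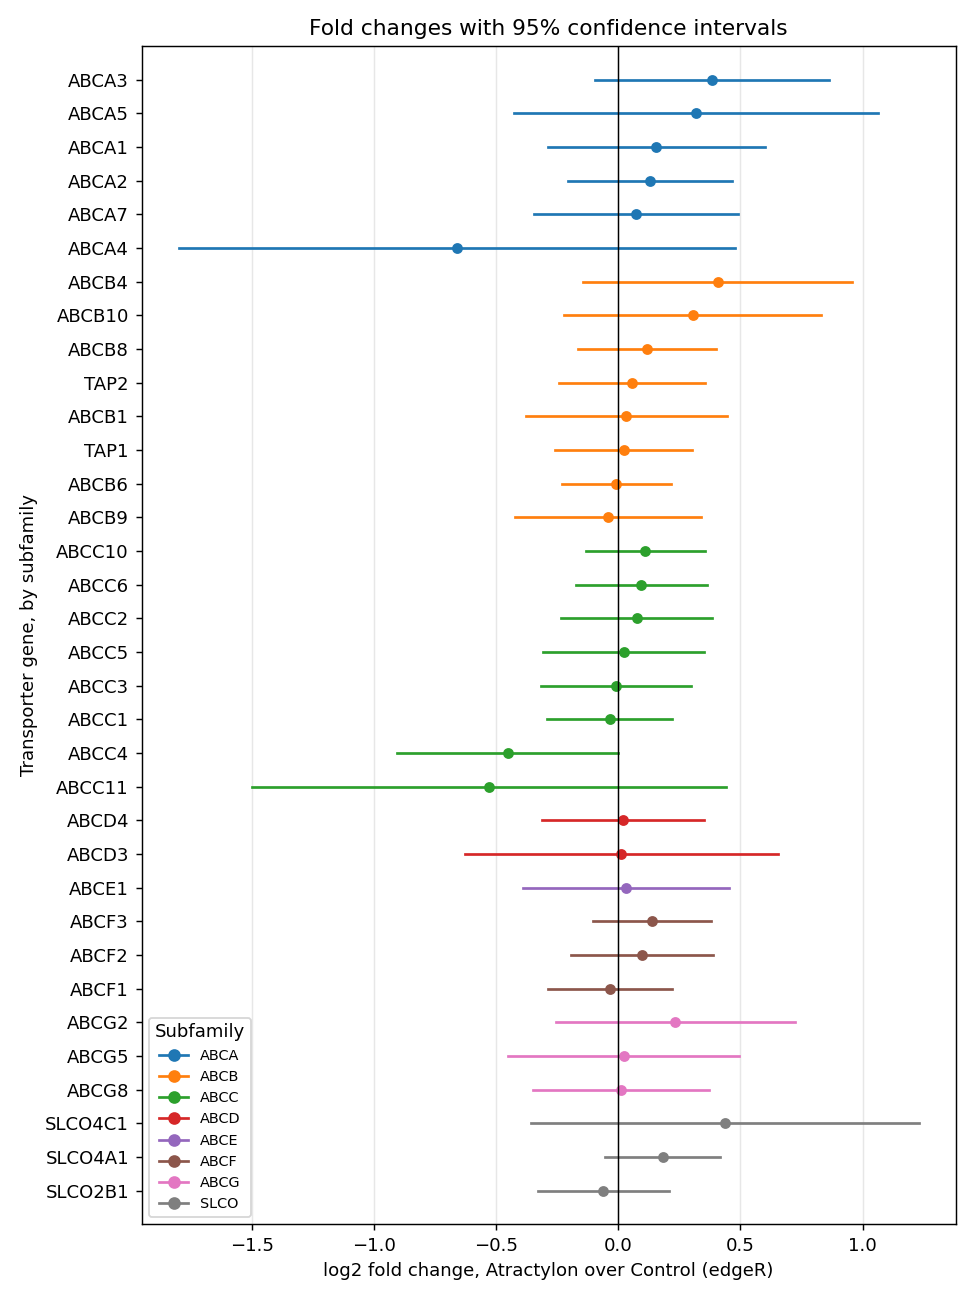
Log2 fold changes of 34 of the 36 detected transporter genes, atractylon over control, by edgeR, with 95% confidence intervals as bars and colours for subfamilies. Intervals of 33 genes cross 0, and that of ABCC4 runs from -0.91 to just below 0.

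ABCC4, which exports cyclic nucleotides, prostaglandins and bile acids at the blood side of the hepatocyte, had the smallest unadjusted p. It was at 12.0, 8.52 and 9.76 CPM in treated and 14.4, 14.7 and 12.6 CPM in control libraries. Each treated library lay below each control library, by a margin of under 1 CPM at the nearest pair. The log2 fold change was -0.45 ± 0.21 (SE, n = 3 per group; unadjusted p = 0.0498, adjusted p = 1 by edgeR). Without Atractylon replicate 1 it was -0.61 (adjusted p = 0.368 by edgeR), and over 19 alternatives it ranged from -0.63 to -0.34, with adjusted p from 0.368 to 1. At the level of FPKM the gene stood at 2.09, 1.86 and 2.19 in treated and 2.67, 4.52 and 2.73 in control libraries.

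SLCO4A1, an uptake carrier for thyroid hormones, had the highest FPKM of the SLCO genes. It had 202, 235 and 215 CPM in treated and 179.8, 196 and 199.95 CPM in control libraries. The groups lay side by side without overlap, with Atractylon replicate 1 next to Control replicate 3. The log2 fold change was 0.18 ± 0.11 (SE, n = 3 per group, adjusted p = 1 by edgeR), with a 95% interval from -0.05 to 0.42. SLCO2B1, which takes up steroid sulphates and statins in liver and gut, was at 58.4, 59.96 and 61.9 CPM in treated and 57.5, 62.0 and 68.3 CPM in control libraries. SLCO4C1, known as an uptake carrier of the kidney, was at 14.0, 4.63 and 7.21 CPM in treated and 6.13, 7.84 and 5.27 CPM in control libraries. Its high treated library was replicate 1, and the log2 fold change was 0.44 ± 0.36 with it and -0.12 without it.

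**Figure D3:**
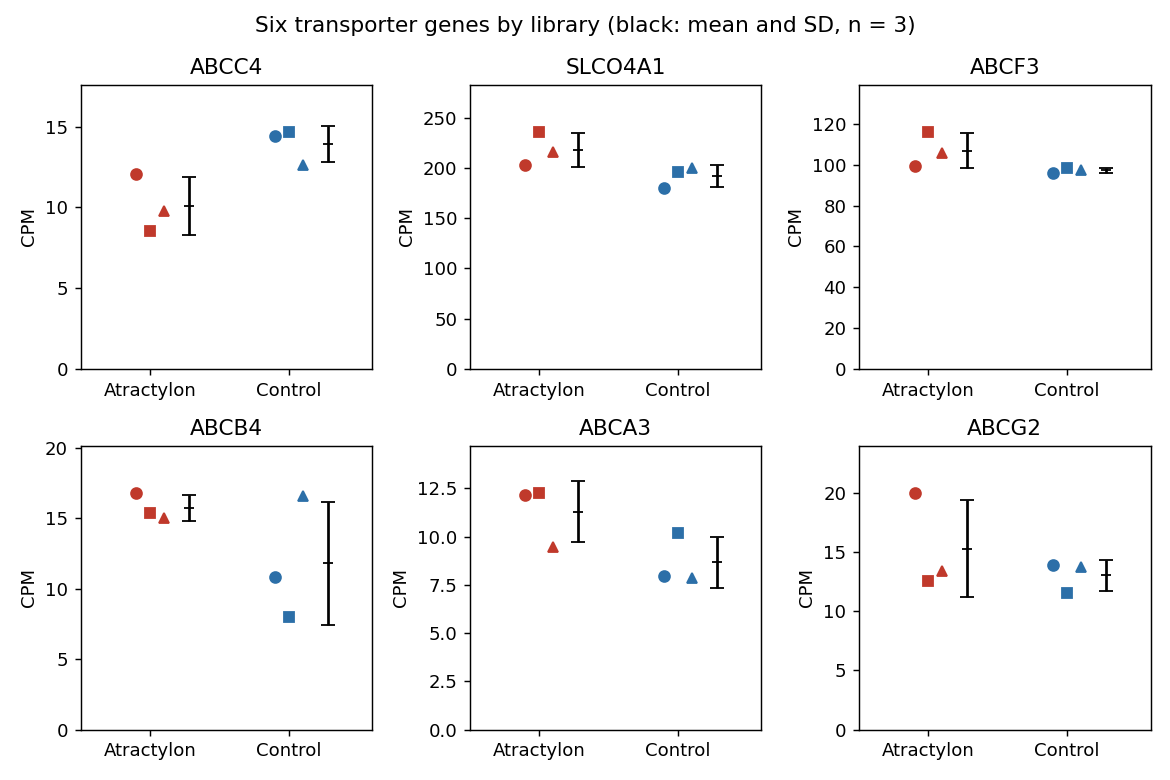
CPM of 6 transporter genes in each library, treated in red and control in blue, with circles, squares and triangles for replicates 1, 2 and 3 and black marks for the mean and SD. ABCC4, SLCO4A1 and ABCF3 show no overlap between groups, while ABCB4, ABCA3 and ABCG2 overlap.

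The canalicular exporters overlapped between groups. ABCC2, which exports bilirubin glucuronides into bile, was at 374, 264 and 268 CPM in treated and 298, 262 and 299 CPM in control libraries (log2 fold change 0.08 ± 0.14, SE, n = 3 per group). ABCB4, which flips phosphatidylcholine into bile, was at 16.8, 15.4 and 15.01 CPM in treated and 10.8, 7.99 and 16.6 CPM in control libraries. All treated values lay between the second and the highest control value or just above the highest. Its log2 fold change was 0.41 ± 0.25, with a 95% interval from -0.15 to 0.96. Without Control replicate 3 it was 0.75 and without Control replicate 2 it was 0.19, so the size rests on single control libraries, and on log2(FPKM + 0.5) by limma it was 0.71. ABCB1, the P-glycoprotein of multidrug resistance, was at 32.8, 22.4 and 23.9 CPM in treated and 29.4, 24.7 and 23.6 CPM in control libraries.

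ABCG2, which exports urate and many drugs, was at 20.0, 12.6 and 13.4 CPM in treated and 13.9, 11.5 and 13.7 CPM in control libraries. Atractylon replicate 1 stood apart, and the log2 fold change of 0.23 ± 0.22 (SE) was -0.01 without it. Its FPKM moved further, to 14.6, 3.36 and 2.86 in treated and 3.13, 3.22 and 6.22 in control libraries. In Atractylon replicate 1 the leading transcript, of 4479 bases, held 28.6% of the gene's FPKM, against 78.3% and 100% in the other treated and 92.3%, 78.0% and 45.8% in the control libraries.

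Among other exporters of subfamily C, ABCC1, ABCC3, ABCC6 and ABCC10 were abundant and overlapped between groups. ABCC1, the exporter of glutathione conjugates, was at 237, 238 and 209 CPM in treated and 219.5, 217 and 266 CPM in control libraries. ABCC3, which exports glucuronides to blood, was at 118, 132 and 129 CPM in treated and 99.4, 140.4 and 141 CPM in control libraries. ABCC6, the gene of pseudoxanthoma elasticum, was at 137, 166 and 152 CPM in treated and 124, 152 and 149 CPM in control libraries. ABCC6 has near-identical pseudogene copies, so its counts are uncertain. ABCC10, a broad drug exporter, was at 109, 119 and 120.3 CPM in treated and 98.3, 111 and 112 CPM in control libraries. The 95% intervals of these 4 genes ended at -0.32 and 0.36 at the widest on the log2 scale. ABCC5, another exporter of cyclic nucleotides, had a log2 fold change of 0.02 ± 0.15, and ABCC11 one of -0.53 ± 0.44 (SE).

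Mitochondrial and porphyrin transporters of subfamily B were led by ABCB6, a porphyrin transporter with the highest FPKM of all members. It had 94.1, 117 and 90.8 FPKM in treated and 107, 104 and 102 FPKM in control libraries, and a log2 fold change of -0.01 ± 0.10 (SE, n = 3 per group). The control values lay within the range of the treated ones. ABCB8 and ABCB10, both of the inner mitochondrial membrane, had log2 fold changes of 0.12 ± 0.13 and 0.30 ± 0.24. ABCB9, a lysosomal peptide transporter, had one of -0.04 ± 0.17.

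Lipid transporters of subfamily A had wider spread. ABCA1, which loads cholesterol and phospholipid onto apolipoprotein A-I, was at 92.8, 51.4 and 53.3 CPM in treated and 55.6, 63.3 and 58.6 CPM in control libraries. Atractylon replicate 1 was the highest of the 6 and the other treated libraries were the lowest, so the log2 fold change of 0.16 ± 0.20 was -0.18 without that library. ABCA3 (given in full after its values were seen), the surfactant lipid transporter of lung, was at 12.2, 12.3 and 9.46 CPM in treated and 7.94, 10.2 and 7.85 CPM in control libraries, with a log2 fold change of 0.38 ± 0.22 (SE). The log2 fold changes of ABCA2, ABCA5 and ABCA7 were 0.13 ± 0.15, 0.32 ± 0.34 and 0.07 ± 0.19, and that of ABCA4 was -0.66 ± 0.52.

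Peroxisomal and lysosomal members of subfamily D carry acyl chains and vitamin B12. ABCD3, which imports bile acid precursors and branched-chain acyl groups into peroxisomes, was at 53.4, 20.5 and 27.6 CPM in treated and 41.7, 29.9 and 29.9 CPM in control libraries. The first replicate of each group was its highest, and the log2 fold change of 0.01 ± 0.29 was -0.49 without Atractylon replicate 1 (adjusted p = 0.404 by edgeR). ABCD4, which acts in lysosomal release of vitamin B12, had a log2 fold change of 0.02 ± 0.15.

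Members of subfamilies E and F were expressed throughout. ABCE1, which splits ribosomes after termination, was at 49.2, 30.7 and 34.8 CPM in treated and 44.2, 35.5 and 33.0 CPM in control libraries. ABCF3 was at 99.2, 116 and 106 CPM in treated and 95.8, 98.4 and 97.3 CPM in control libraries. Its groups did not overlap in CPM, with the lowest treated value under 1 CPM above the highest control value. In FPKM they overlapped, at 80.9, 86.9 and 92.1 in treated and 82.8, 74.6 and 77.8 in control libraries. The log2 fold change was 0.14 ± 0.11 (SE, n = 3 per group, adjusted p = 1 by edgeR). ABCF2 had a log2 fold change of 0.10 ± 0.13.

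ABCF1, a translation factor, and TAP1 and TAP2, which pump peptides into the endoplasmic reticulum for MHC class I, lie in the MHC region of chromosome 6. Reference genomes carry that region in several alternate haplotype sequences, and the table lists their transcripts separately. For ABCF1, 42 of 49 transcripts were named in the GENCODE name table but not in its primary annotation. They held 97.3%, 96.9% and 98.1% of the gene's counts in treated and 99.8%, 96.1% and 95.8% in control libraries. For TAP1 they held 83.3% to 83.5% of the counts in each of the 6 libraries, as its leading transcript of 2959 bases was listed 6 times with 5.13 mean FPKM each, equal within 1%. For TAP2 they held 92.5%, 96.3% and 84.9% in treated and 95.9%, 88.3% and 96.9% in control libraries.

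Summing all copies changed the level of these genes and not their calls. ABCF1 had 51.5, 54.3 and 52.1 FPKM in treated and 51.2, 52.3 and 61.1 FPKM in control libraries, where the primary annotation alone gave 1.65, 1.78 and 1.19 FPKM in treated and 0.4, 2.28 and 2.85 FPKM in control libraries. TAP1 was at 85.3, 106 and 80.9 CPM in treated and 86.2, 92.0 and 90.04 CPM in control libraries (log2 fold change 0.02 ± 0.13, SE, n = 3 per group). TAP2 was at 69.6, 82.5 and 90.1 CPM in treated and 68.2, 79.8 and 84.4 CPM in control libraries (0.06 ± 0.14). On the primary annotation alone the log2 fold change of TAP2 was 0.57 ± 0.58, and 1 library, Atractylon replicate 3, had 90.65 of its counts against 40.88 and 20.29 in the other treated and 15.48, 62.73 and 21.55 in the control libraries.

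**Figure D4:**
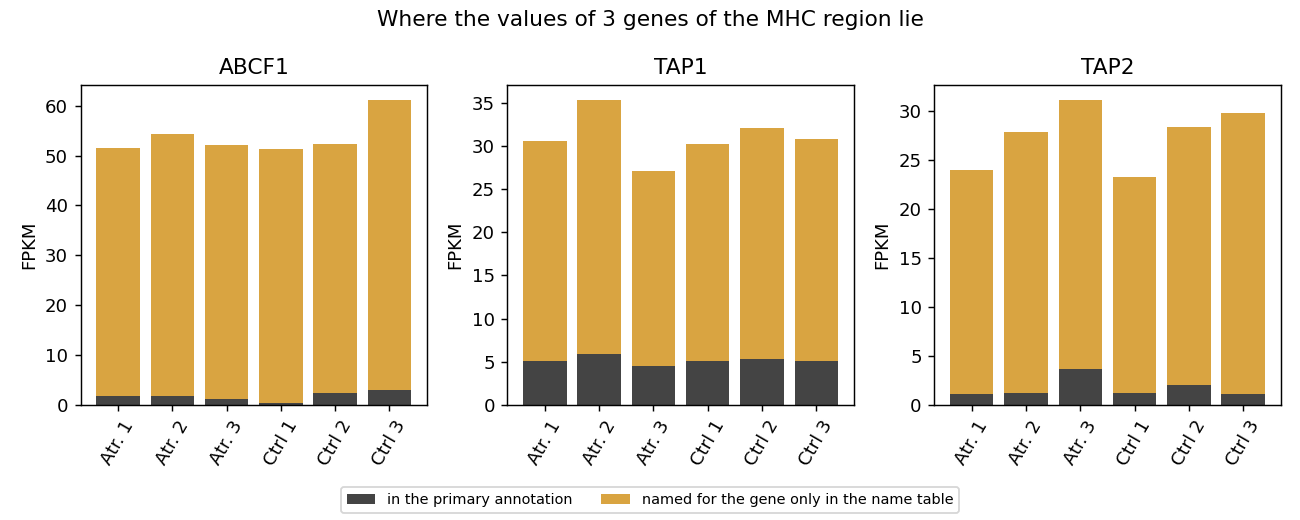
FPKM of ABCF1, TAP1 and TAP2 in each library, stacked by whether the transcripts stand in GENCODE's primary annotation (dark) or are named for the gene only in its name table (yellow), treated libraries at the left of each panel. The dark part of ABCF1 is at most 2.85 FPKM in any library.

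The order of levels depended on short transcripts. By summed FPKM the 10 highest members were ABCB6, SLCO4A1, ABCF3, ABCC6, ABCC2, ABCF1, ABCC1, ABCC3, ABCC10 and TAP1. By CPM per kilobase of the longest coding transcript, 8 of these 10 stayed among the first 10, and ABCC3 and ABCC10 ranked 11 and 12. For ABCF3, a retained-intron transcript of 657 bases held 56.1% of the FPKM, and transcripts under 1000 bases held 58.0% of the FPKM and 20.0% of the counts. For ABCC6, a coding transcript of 714 bases held 59.1% of the FPKM, and short transcripts held 13.8% of the counts. In 5 members, ABCF3, ABCC3, ABCD4, ABCC11 and ABCA4, over 50% of the FPKM lay on transcripts that GENCODE does not type as protein-coding, 92.2% for ABCD4. At the other end, 1 transcript held over 90% of the FPKM of 5 members, among them ABCF2, ABCG8, ABCB10 and SLCO4C1, the last and ABCG8 having a single transcript in the table.

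GC content went with the members' spread within groups, and its part in any fold change was not tested beyond the fit with the trend removed. The Spearman correlation over 36 members between GC content and the deviation from the mean of 6 libraries on log2(CPM + 2) was -0.717, 0.849 and 0.347 in the treated libraries, by replicate number. It was -0.459, 0.182 and 0.206 in the control libraries. Over all genes the values were -0.626, 0.631 and 0.425 in treated and -0.445, 0.191 and 0.019 in control libraries. Points share each library, so these are descriptions with no p. The 9 members with GC content below 45%, among them ABCE1, ABCD3, ABCG2 and SLCO4C1, had a median deviation of 0.38, -0.27 and -0.11 in treated and 0.17, -0.07 and -0.10 in control libraries. The 17 members at 55% or more, such as ABCA7 at 64.6%, had -0.07, 0.18 and 0.03 in treated and -0.09, 0.02 and 0.02 in control libraries. With the GC trend removed the SE of ABCD3 was 0.16, against 0.29 as counted.

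**Figure D5:**
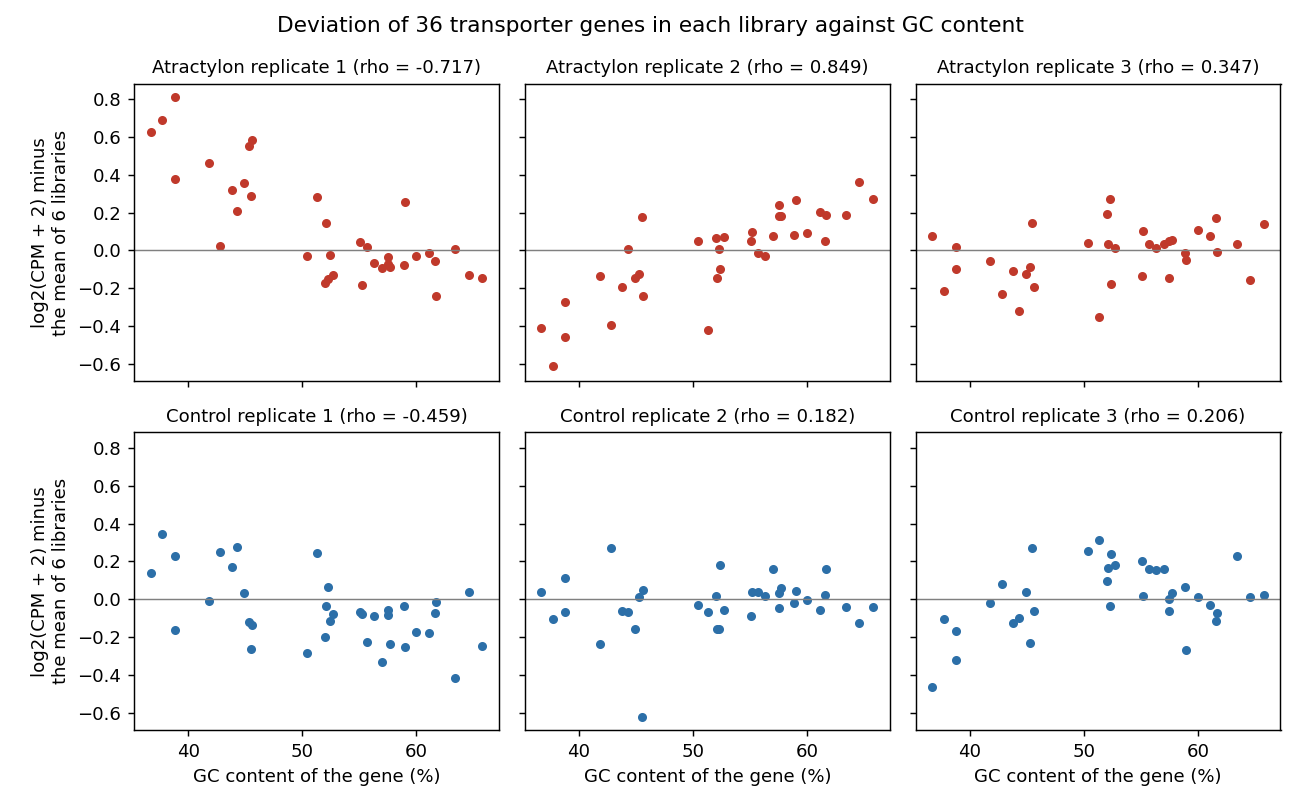
Deviation of each of 36 transporter genes from its mean over 6 libraries, on log2(CPM + 2), against the gene's GC content, in treated libraries above and control libraries below. The slopes of Atractylon replicates 1 and 2 run in opposite directions, with Spearman values of -0.717 and 0.849.

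Partners of the transporters did not pass the threshold either, with 0 members of any list at an adjusted p below 0.05 by edgeR. Among 18 factors known to control transporter genes, 9 were above and 9 below 0, with a median log2 fold change of 0.0067 against 0.0047 over all genes. FOXO3 had an unadjusted p of 0.0412, at 78.0, 75.7 and 74.2 CPM in treated and 55.0, 62.6 and 68.9 CPM in control libraries (adjusted p = 1 by edgeR). NR1I2, the xenobiotic receptor PXR that induces ABCB1 and ABCC2, was at 11.4, 10.6 and 12.2 CPM in treated and 13.7, 13.8 and 14.7 CPM in control libraries. The groups did not overlap for FOXO3 or NR1I2, 2 of 18 factors, against 5.62% of all genes, and 1 of 18 had an unadjusted p below 0.05, against 1.5% of all genes. Scaffold, trafficking and flippase genes linked to apical transporters had 5 positive and 6 negative values among 11 (median -0.02). The flippase ATP8B1, the other gene with an unadjusted p below 0.05 by edgeR, was at 0.128, 0 and 3.30 CPM in treated and 9.56, 0 and 11.8 CPM in control libraries. Its groups overlapped, and it was 1 of 11 genes of the list at that threshold, against 1.5% of all genes. For RAB8A the groups did not overlap, with lower values in treated libraries, 1 of 11 against 3.32% lower over all genes.

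Of 16 peptide loading partners of TAP, 5 were above and 11 below 0 (median log2 fold change -0.04). Other carriers of organic anions and cations had 20 of 29 members tested, 11 positive and 9 negative (median 0.02), and the groups of 3 did not overlap, SLC51A and SLC51B with higher and SLC47A1 with lower values, against 2.3% higher and 3.32% lower over all genes. SLC51A, a subunit of the basolateral bile acid exporter, was at 8.71, 12.0 and 9.61 CPM in treated and 4.69, 8.44 and 8.34 CPM in control libraries. SLC47A1, which exports organic cations, was at 110.5, 126 and 123 CPM in treated and 128, 132 and 146 CPM in control libraries. Partners of lipid export had 11 positive and 4 negative values among 15 (median 0.07), partners of subfamily D 10 and 8 among 18 (median 0.0071), and genes of haem and iron-sulphur synthesis 10 and 11 among 21 (median -0.0028). ALAD, an early enzyme of haem synthesis, was at 47.4, 47.7 and 45.8 CPM in treated and 54.1, 54.0 and 53.9 CPM in control libraries, with no overlap and a log2 fold change of -0.20 ± 0.12. It was 1 of 21 genes of its list without overlap, against 3.32% lower over all genes. Translation partners of ABCE1 and subfamily F had 5 positive and 13 negative values among 18 (median -0.06), and for EIF2S2, a subunit of initiation factor 2, the values were 51.3, 46.3 and 50.4 CPM in treated and 67.8, 52.7 and 59.1 CPM in control libraries.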

How the data were processed

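For 180253 transcripts, the authors deposited expected counts and FPKM values in each of 6 libraries, per the file headers. Expected counts are estimates and can be fractional. Which program made them, with what annotation and strand setting, is not given in the sources used here. The submitters' processing notes name HISAT2 2.0.1, cutadapt 1.9.1, DESeq2 1.6.3, bcl2fastq 2.17.1.14 and the build hg19, without their roles. A SMART-Seq v4 low-input kit was used, per the labels' protocols.

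Transcripts were matched by identifier to GENCODE 29, which is built on GRCh38, for names only. The primary annotation held 153245, and GENCODE's HGNC name table gave another 7063 to a gene. The other 19945, with 7.27% to 7.50% of counts, entered neither the library sizes nor any test. Adding the name table was decided after the files were seen. Values were summed per gene and expected counts rounded.

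Genes reaching 0.5 FPKM in 3 or more libraries were tested with edgeR 4.0.16 (trimmed-mean scaling, glmQLFit, glmQLFTest, 2-sided, group as the only term, Benjamini-Hochberg adjustment over 12344 genes), with DESeq2 1.42.0 and limma 3.58.1 as alternatives. The SE is the absolute log2 fold change over the square root of the F statistic. CPM are counts over effective library size. Total expected counts were 5859575 to 8832092 per library. Libraries of 1 group differed beyond sampling noise (chi-square per degree of freedom 3.42 to 19.65). Full values were given for members without overlap or with an unadjusted p below 0.05, the 10 most abundant and a list of textbook members; some others are added and were chosen after their values were seen. The members, lists and tests were chosen with earlier results of these data known. A few members enter the totals but are otherwise not reported here. The promoter comparison was chosen after the promoter sequences and levels were seen.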

Additional observations from a re-analysis of the deposited data

How the results depend on the processing

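No member tested passed the threshold in any of 19 alternatives, which tested 34 to 36 members, or 48 with no filter on FPKM. Over all genes, 0 passed in 17 of them. Without Atractylon replicate 1, 1 gene passed (ZNF516), so the count ranged from 0 to 1 over single libraries left out, and without replicate 1 of both groups 2 passed (ZNF516 and FAAP100). In those fits 10.9% and 9.45% of genes had an unadjusted p below 0.05, against 1.5% as counted, and both remaining treated libraries exceeded each remaining control in GC correlation, which the design cannot separate from treatment. The last alternative and the use of the primary annotation only were chosen after seeing the data. The median log2 fold change of the members ranged from 0.0089 to 0.1034. Of 677 member values, 635 moved by at most 1 SE of the main value and 42 by more. The sign was the same in each alternative that tested the gene for 8 members (17 of the 19 for ABCC11) and changed at least once for 28, and 0 of these values passed the threshold. Same-numbered libraries had correlations of 0.201, 0.263 and 0.016, and differently numbered ones ranged from -0.27 to 0.092. The main fit did not pair them, and whether the numbers mark shared handling was not tested. With the replicate block 0 members and 0 genes passed, and 296 genes had an unadjusted p below 0.05 by edgeR, against 185 without the block. For the 11 members with 0 counts, levels under 0.0721 CPM could not be seen at this depth.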
